A study of Mus musculus with 9 samples.

Results

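The largest clustered H3K27ac domains of mouse lung endothelial cells were examined: 500 of 34437 joined domains, each a stretch of the genome in which H3K27ac regions lie close together away from the ends of genes. They were chosen from the H3K27ac region list of the deposited table, which holds 112363 regions on chromosomes 1 to 19 and X. Regions within 2 kb of either end of a protein-coding gene were set aside, which left 89585 distal regions. Distal regions no more than 12.5 kb apart were joined, and the 500 domains with the most bases covered by H3K27ac regions were kept. The number of H3K27ac regions, their width and the covered bases of a domain are therefore what selected it, and are given as a description.

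The study profiled histone marks by ACT-seq in endothelial cells isolated from the lungs of wild-type mice. In ACT-seq, an antibody brings Protein A/G-Tn5 transposase to nuclei, and the enzyme tags the DNA beside the mark. The targets were H3K27ac, H3K18ac, H3K9ac, H3K23ac and H3K14ac on histone H3, H4K8ac, H2AK5ac, the methylation H3K4me3, and IgG as the control. Each target had 1 library and no replicate, so no test between marks was possible and no p-value is given; age, sex and the number or pooling of animals are not in the labels used here. The table does not say which of its 8 region lists belongs to which mark; each list was named after the library densest in the bases found in no other list. For the list named H3K27ac this rests on 11.9% of its bases, with 44.2 CPM (counts per 1000000 counts of a library) per kb for H3K27ac against 22.3 for IgG, the next library.

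Acetylation of histone tails by enzymes such as p300 and CBP accompanies active regulatory DNA, and readers with bromodomains bind it. H3K27ac marks active enhancers and promoters, whereas H3K4me3 is most abundant at transcription start sites. Dense clusters of H3K27ac-marked enhancers, often named super-enhancers, are known to lie near genes that define a cell type, such as those for its transcription factors and receptors.

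Although gene ends were set aside, some gene starts lay inside regions of the 500 domains, because alternative starts within a gene and starts of long noncoding RNAs (lncRNAs) were not part of the rule. Of the protein-coding starts in the RefSeq start table, 99 of 21045 (0.470%) lay in such a region, and of lncRNA starts 99 of 11574 (0.855%). The 250 bases upstream of 6 of these starts are shown, read 5′ to 3′ on the strand of the gene from the RefSeq table of GRCm38.p6. They were picked after their values were seen, because each start lies in 1 of the 100 largest domains and inside regions of 7 or 8 of the 8 lists; domain 22, not described further, lies at Ppp1r13b and covers 8659 bp. Capitals mark every match to the ETS core letters AGGAAG or CCGGAA on either strand, ETS factors being prominent regulators of endothelial genes; the Rbms1 and Tjp1 stretches hold none.

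Egfl7 (chr2:26583615-26583864, plus strand, domain 9): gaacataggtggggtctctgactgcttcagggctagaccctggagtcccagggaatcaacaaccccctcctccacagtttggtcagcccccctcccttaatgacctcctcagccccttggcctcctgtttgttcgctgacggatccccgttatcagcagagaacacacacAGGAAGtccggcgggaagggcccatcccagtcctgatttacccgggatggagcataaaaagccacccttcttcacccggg
Rbms1 (chr2:60881439-60881688, minus strand, domain 11): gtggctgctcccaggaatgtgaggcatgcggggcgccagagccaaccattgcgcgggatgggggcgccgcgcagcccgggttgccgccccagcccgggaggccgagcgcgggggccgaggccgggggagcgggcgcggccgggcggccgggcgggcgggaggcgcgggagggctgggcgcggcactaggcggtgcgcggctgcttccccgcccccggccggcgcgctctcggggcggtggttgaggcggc
Tjp1 (chr7:65371245-65371494, minus strand, domain 56): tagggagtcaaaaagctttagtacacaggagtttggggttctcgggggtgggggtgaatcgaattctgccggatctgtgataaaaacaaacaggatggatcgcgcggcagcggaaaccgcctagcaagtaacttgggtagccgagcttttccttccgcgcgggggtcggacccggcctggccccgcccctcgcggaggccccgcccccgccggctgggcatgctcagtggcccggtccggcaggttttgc
2210408F21Rik (chr6:31220101-31220350, plus strand, lncRNA, domain 5): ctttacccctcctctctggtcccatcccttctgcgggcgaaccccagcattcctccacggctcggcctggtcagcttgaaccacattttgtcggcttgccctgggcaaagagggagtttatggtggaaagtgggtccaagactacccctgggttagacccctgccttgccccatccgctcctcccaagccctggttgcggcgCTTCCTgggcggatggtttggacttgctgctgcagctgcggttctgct
Gm17745 (chr10:93335961-93336210, plus strand, lncRNA, domain 16): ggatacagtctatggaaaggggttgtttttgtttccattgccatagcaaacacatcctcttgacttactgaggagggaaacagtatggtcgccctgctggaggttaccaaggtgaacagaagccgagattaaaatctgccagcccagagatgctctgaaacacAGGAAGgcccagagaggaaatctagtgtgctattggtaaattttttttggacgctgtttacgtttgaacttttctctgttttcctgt
5033406O09Rik (chr12:111944483-111944732, minus strand, lncRNA, domain 22): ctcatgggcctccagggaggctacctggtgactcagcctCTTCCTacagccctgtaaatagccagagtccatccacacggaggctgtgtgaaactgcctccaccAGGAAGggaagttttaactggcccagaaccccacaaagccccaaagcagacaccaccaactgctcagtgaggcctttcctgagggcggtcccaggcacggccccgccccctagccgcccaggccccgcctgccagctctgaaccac

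The 6 stretches differed in composition: the Rbms1 stretch had 82.4% G or C and 38 CG pairs, whereas the Gm17745 stretch had 44.4% and 4. The starts of Rbms1, 2210408F21Rik, Gm17745 and 5033406O09Rik lay in regions of all 8 lists, and those of Egfl7 and Tjp1 in regions of 7. Among all starts inside regions of the 500 domains, ETS core letters occurred upstream of 80 of 198 (40.4%), against 45.9% of starts in other distal H3K27ac regions and 38.4% of all starts. The AP-1 letters TGANTCA, which read the same on both strands, occurred upstream of 29 of 198 (14.6%), 9.86% and 6.78% in the same order; neither motif's letters contain the other's. The share of ETS letters was thus between those of the other sets, and the share of AP-1 letters was above both. Letters of E-box, forkhead, SOX, MEF2 and GATA motifs were searched too. E-box (67.2%, 62.8% and 66.3%) and forkhead letters (3.54%, 2.77% and 3.18%) were also above both, but by less. SOX (23.7%, 22.9% and 24.9%), MEF2 (2.53%, 2.09% and 5.18%) and GATA letters lay between. AP-1 thus stood farthest above both among all motifs searched, and no test was made. The 198 starts came from 78 protein-coding and 85 lncRNA genes, and some starts of a gene lie a few bases apart, so their stretches overlap. A match of letters is a description and not a bound site.

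The domains ranged widely in size. They covered 3351 bp (lowest), 4404 bp (median) and 16338 bp (highest), in 8, 18 and 62 regions, over spans of 26.5, 70.2 and 232 kb. The median of all joined domains was 324 bp in 2 regions, and 48.5% of them consisted of 1 region. The 500 domains were 1.45% of joined domains and held 9591 regions, which are 10.7% of distal regions and 12.6% of distal covered bases. On average they were sparse: H3K27ac regions covered 6.52% of the 37.9 Mb they span. A region had a median width of 216 bp inside the domains and 177 bp elsewhere, and the widest single region, 1692 bp, lay in the domain at Foxo1, a transcription factor downstream of insulin and growth-factor signalling.

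**Figure D1:**
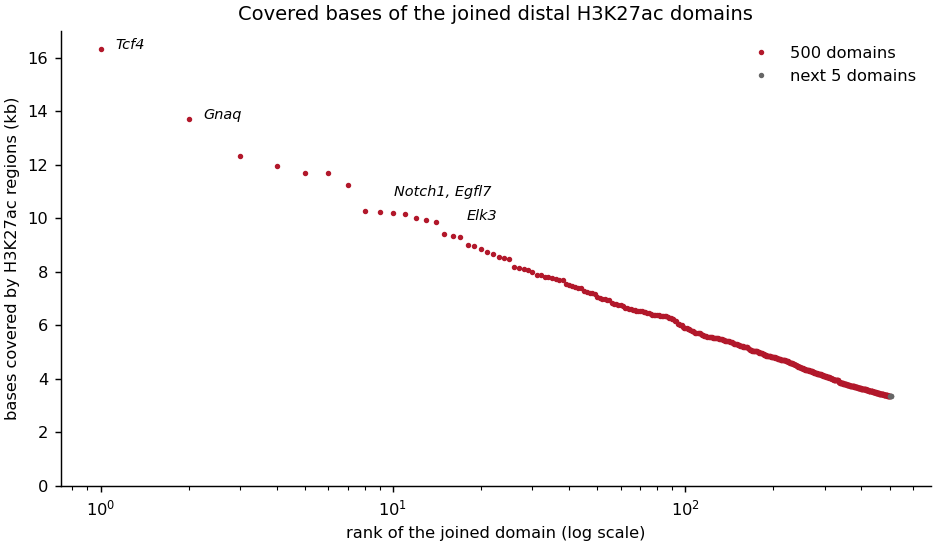
Covered bases (kb) of the 500 domains and of the next 5, by rank on a log axis; each point is 1 domain. The curve falls from 16338 bp at Tcf4 to 3351 bp at rank 500 and continues at 3346 bp without a step.

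The threshold cut a smooth curve. Just inside it, ranks 496 to 500 lay at Tnk2, Baiap2, Hk1, Tmco5 (nearest gene) and Yars with C77080, and covered 3367, 3366, 3353, 3352 and 3351 bp. Just outside it, ranks 501 to 505 lay at Nbeal2 with Ccdc12, Zfhx3, Myo16 (nearest gene), Nt5c2 and Dennd1b, and covered 3346, 3344, 3342, 3342 and 3341 bp. Membership also depended on the joining distance. With 5 kb, the largest 500 domains had a median span of 12.8 kb, 234 of the 500 shared a base with one of them, and 88 kept at least 50% of their covered bases. With 25 kb, 356 kept that share.

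The largest domain lay wholly inside Tcf4 (gene ID 21413, chromosome 18), which encodes an E-protein transcription factor, with 62 regions and 16338 bp over 186 kb. Domain 2, inside Gnaq, the alpha subunit of a Gq protein that couples receptors to phospholipase C, had 62 regions and 13714 bp over 232 kb. Domain 9 ran from Notch1, the receptor that directs arterial fate, to Egfl7, a factor secreted by endothelium, and covered 10236 bp in 36 regions (chr2:26474969-26590264). Domain 16 at Elk3, an ETS-family factor, covered 9320 bp in 37 regions (chr10:93259520-93375546), and domain 17 at Nfatc1, a calcium-regulated transcription factor of endocardium, 9305 bp in 32 regions. These leading genes are mostly regulators and signalling proteins.

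Most of the other domains among the 20 largest fell into 3 kinds. Domains 6, 7, 8, 11, 12, 13 and 15 lay wholly inside Tspan9, Dock9, 2900026A02Rik, Rbms1, Magi1, Maml2 and Fndc3b, and domain 4 wholly inside Zmiz1, with Gm45915 within the same span. Maml2 is a coactivator of Notch, Magi1 a scaffold of cell junctions and Rbms1 an RNA-binding protein. Domains 10, 14 and 18 touched several genes: Myoz3, Synpo and Ndst1, then Mpzl1 and Rcsd1, then Wipf1 and Chrna1. Domains 5, 19 and 20 overlapped no protein-coding gene, and the nearest ends were those of Klf14 at 103 kb, Foxl1 at 21.8 kb and Lrrc74a at 3.07 kb. Covered bases of these ran from 8833 bp (domain 20) to 11965 bp (domain 4).

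Most domains sat in gene bodies. Of the 500, 420 overlapped a protein-coding gene, 351 a single one and 69 several, and 71.5% of their regions lay wholly inside a gene, against 55.2% of other distal regions. The 80 domains outside genes were 2.12 to 313 kb from the nearest gene end (median 22.2 kb). In these 80, H2AK5ac regions covered a median of 42.2% of the H3K27ac bases, against 34.3% in the 420 in genes; for H3K18ac the medians were 82.4% and 77.7%, for H3K14ac 63.9% and 59.6%, for H3K9ac 39.9% and 36%, and for H3K4me3 28.0% and 26.3%. H3K23ac and H4K8ac went the other way, with 40% and 71.4% outside genes and 43.9% and 72.6% in genes. Some domains came in runs: 31 neighbouring pairs were under 50 kb apart.

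Chromosomes differed in their share. On autosomes, 7.08% (chromosome 16) to 14.1% (chromosome 15) of the distal H3K27ac regions lay in the 500 domains. Chromosome X had 2.38% of its 1725 regions there, in 3 domains, at Nhsl2, at the ETS-family gene Elf4 and at Mid1. Chromosome 2 had the most domains, 50, with 13.4% of its regions. No test was made, since the chromosomes come from 1 library.

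H3K18ac, H4K8ac and H3K14ac were found at most of these regions, and the other marks at fewer. An H3K18ac region shared at least 1 base with 82.3% of the 9591 H3K27ac regions in the domains, an H4K8ac region with 80.7% and an H3K14ac region with 70.3%. H2AK5ac was present at 48.8%, H3K23ac at 46.9%, H3K9ac at 40.9% and H3K4me3 at 31.5%. In the other 79994 distal H3K27ac regions these shares were 68.4% (H3K18ac), 61.5% (H4K8ac), 60.9% (H3K14ac), 29.0% (H2AK5ac), 21% (H3K23ac), 17.9% (H3K9ac) and 18.1% (H3K4me3). Each mark was thus met more often in the domains, and the order of the marks differed only at the low end, where H3K9ac stood above H3K4me3 in the domains and level with it elsewhere. Exact binomial (Clopper-Pearson) 95% intervals, which cover counting error only, ran for the domains from 81.5 to 83.1% for H3K18ac, 47.8 to 49.8% for H2AK5ac and 30.6 to 32.4% for H3K4me3.

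Wider H3K27ac regions met other marks more often, and regions in the domains were wider. At equal widths the order of the 7 marks by their excess changed little, but the excess shrank. Weighting the other distal regions to the widths found in the domains, H3K23ac was 1.72 times and H3K9ac 1.71 times as frequent in the domains, H2AK5ac 1.34 times, H3K4me3 1.32 times, H4K8ac 1.14 times, H3K18ac 1.06 times and H3K14ac 1.02 times. In all 5 width classes the share in the domains was the higher for each of the 7 marks, but for H3K14ac the exact 95% intervals overlapped in 4 of the 5 classes, and for H3K18ac and H4K8ac in 1, that of regions over 500 bp. At the narrowest width, 108 bp, H3K14ac was at 28.6% of 1071 regions (95% interval 25.9 to 31.4%) against 28.5% of 18775. H3K14ac, the mark with the longest list, thus barely distinguished the domains from other distal regions, whereas H3K9ac and H3K23ac distinguished them most. Regions at ranks 501 to 1000 stood nearer to the domains, with H3K9ac at 32.6%, H3K23ac 37.9%, H2AK5ac 42.2% and H3K4me3 28.1% over all widths. At 108 bp they were above the domains for H3K23ac (9.50% against 9.43%), H3K4me3 (7.78% against 5.98%) and H3K14ac (31.5% against 28.6%). For the other marks they were below the domains at that width.

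**Figure D2:**
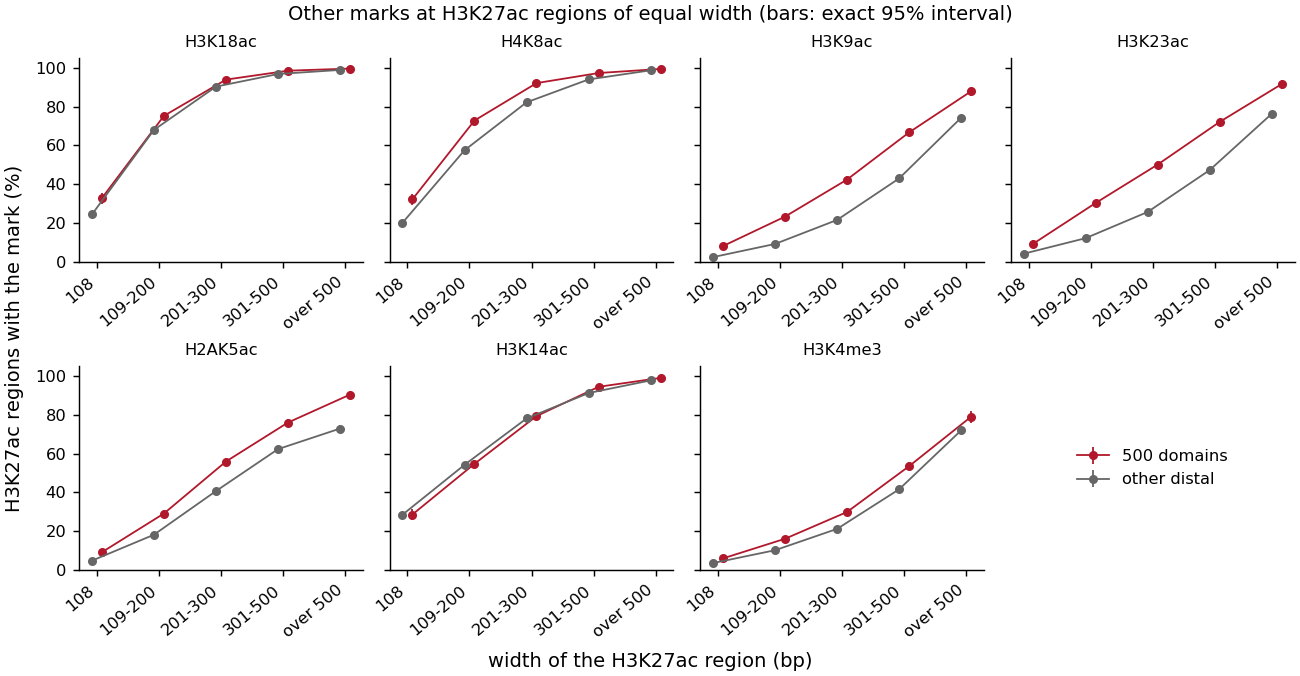
Share of H3K27ac regions (%) that share a base with a region of each other mark, by width of the H3K27ac region (bp), for the 500 domains (red) and other distal regions (grey); bars are exact 95% intervals. At 108 bp H3K14ac stands at 28.6% and 28.5%, whereas H3K9ac and H3K23ac in the domains lie above the grey points at every width.

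The marks also lay together at single regions. Of the 7 other lists, a region in the domains met 4.01 on average and another distal region 2.77. All 7 were present at 1486 regions of the domains (15.5%) and at 4.98% of other distal regions, and none at 591 (6.16%) and 15.1%. The domains as wholes were close to complete: 496 of 500 had regions of all 8 lists among their H3K27ac regions, against 13.9% of all joined domains, which have fewer regions, and 468 of the 500 at ranks 501 to 1000. Domain 269 at Mgll, domain 316 at Hsf2bp with Rrp1b and domain 378 at Reep1 had no H3K9ac.

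Regions of the other lists were centred on the H3K27ac regions and covered little between them. At the centre of a region in the domains, 77.5% of positions lay in an H3K18ac region, 38.6% in H3K23ac and 25.2% in H3K4me3, and 2 kb downstream on the reference 5.30%, 5.70% and 2.94% did. Other distal regions had 62.7%, 16% and 14.5% at the centre and 2.43%, 1.91% and 1.23% at 2 kb. In the gaps of the 500 spans, outside any H3K27ac region, H3K14ac regions covered 5.28% of bases, H3K23ac 3.63% and H3K4me3 1.55%, against 5.08%, 2.77% and 1.36% in the gaps of ranks 501 to 1000. The gaps were therefore mostly free of regions of the marks listed. Some parts of them held reads. In places inside H3K14ac regions alone, H3K27ac had 21.5 CPM per kb and IgG 22.7, as described below. Those places total 932 kb in 359 domains, so they do not stand for the gaps at large.

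**Figure D3:**
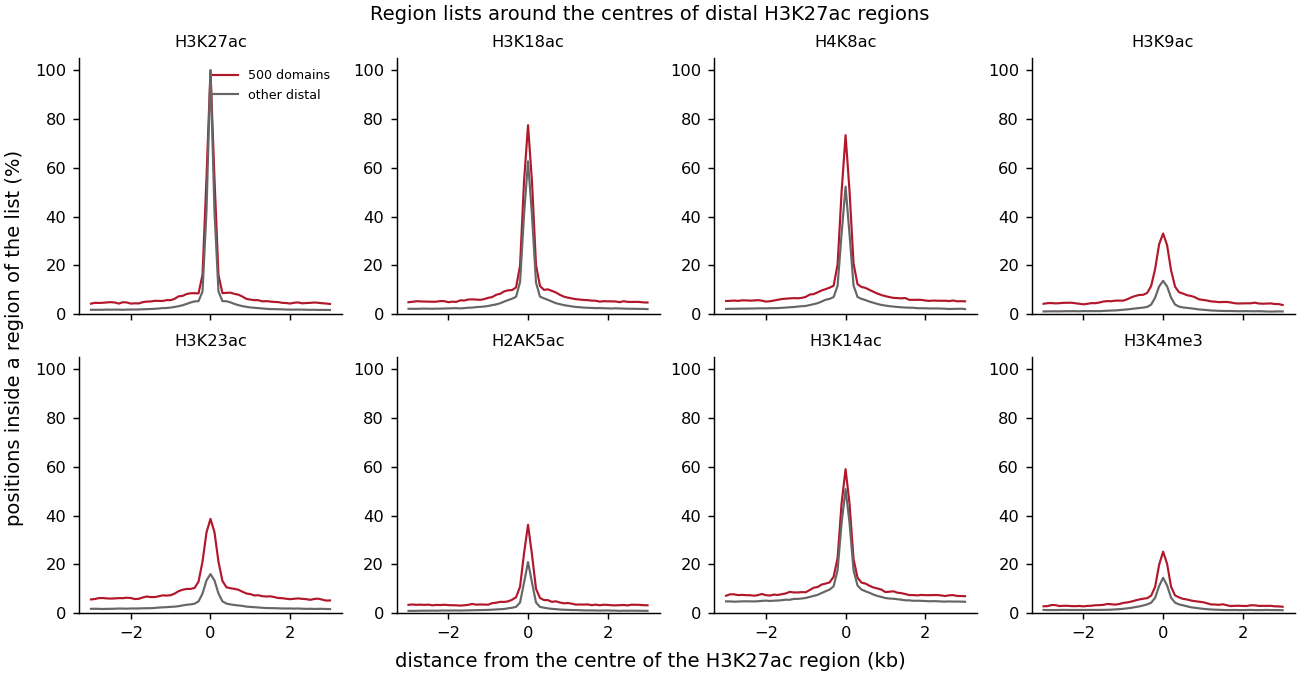
Share of positions (%) inside a region of each list against the distance (kb) from the centre of the H3K27ac region, for regions of the 500 domains (red) and other distal regions (grey). H3K18ac falls from 77.5% to 5.30% at 2 kb in the domains.

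Domains differed among themselves in the less frequent marks. H3K18ac regions covered 46.2% (lowest), 78.6% (median) and 96.9% (highest) of a domain's H3K27ac bases, and H4K8ac 39.5, 72.4 and 91.2%. H3K9ac covered 0, 37.1 and 85.5%, H3K23ac 6.10, 43.5 and 88.8%, H2AK5ac 4.25, 35.6 and 76.1%, and H3K4me3 0, 26.8 and 80.0%. H3K18ac and H4K8ac were thus present throughout the set, whereas H3K9ac and H3K4me3 ranged from nothing to most of a domain. H3K14ac covered 20.7, 60.3 and 90.1%.

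Among the 100 largest domains, H3K4me3 coverage was highest at Sirt4 with Pxn (60.4%, domain 60), beside Tex44 (60.2%, domain 64) and at Chd2 (53.3%, domain 89). Each of these domains had a lncRNA start inside an H3K27ac region: Gm42007 (domain 60), Gm41907 (domain 64) and Chaserr (domain 89). Whether the H3K4me3 belongs to these starts was not tested. Paxillin, the product of Pxn, is an adaptor of focal adhesions. H3K4me3 was lowest at Emsy (8.57%, 2 of 24 regions), Gnaq (10.8%, 7 of 62 regions) and Gas7 (13.4%, 5 of 31 regions). H3K9ac was highest beside Lrrc74a (72.9%), at Ctif (70.7%) and at Maff with Tmem184b and Csnk1e (70.5%), and lowest at Swap70 with Sbf2 (14.6%), Fyn (16.9%) and Ldlrad4 (17.1%). H2AK5ac was highest at Tns1 (60.2%), beside Col18a1 (55.3%) and at Tspan18 (54.0%), and lowest at Fli1 (16.1%), Fyn (17.4%) and Gas7 (20%). Fyn, a Src-family kinase, was low in both acetylations, and Gas7 low in H2AK5ac and H3K4me3. Tns1 encodes tensin, a focal-adhesion protein, and Col18a1 the collagen from which endostatin is cut.

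Applying the same rule to each other list gave 500 domains per mark, and a domain was taken as shared where they filled at least 50% of its span. H3K18ac shared 341 of the 500 (68.2%), H4K8ac 333 (66.6%), H2AK5ac 232 (46.4%), H3K23ac 225 (45.0%), H3K9ac 142 (28.4%), H3K14ac 87 (17.4%) and H3K4me3 76 (15.2%). For H3K27ac domains at ranks 501 to 1000 the shares were 22.4%, 27.4%, 20.2%, 19.8%, 12.6%, 16% and 9.60% in the same order. Domain lengths differ between marks: H3K14ac domains had a median span of 422 kb and H3K9ac domains of 29.2 kb, so spans of H3K9ac or H3K4me3 domains can seldom fill 50% of an H3K27ac domain. Seen from the other list, 293 of the 500 H3K18ac domains (58.6%), 278 of H3K9ac (55.6%), 183 of H3K4me3 (36.6%) and 11 of H3K14ac (2.20%) were filled to at least 50% by H3K27ac domains. With spans this unequal, these shares do not rank the marks by likeness to H3K27ac.

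The Tcf4 domain was the single one shared with all 7 other marks. A further 42 were shared with 6, among them Notch1 with Egfl7, Rbms1, Elk3, Maff, Hspg2, Unc5b, Igfbp7, Prox1 and Eng. Hspg2 encodes perlecan of the basement membrane and Unc5b a guidance receptor of endothelium. At the other end, 45 domains were shared with none, among them those at Fyn, Ets1, Txn2 and Jun. Across the Tcf4 domain, H3K9ac regions covered 67.2% of the H3K27ac bases, H3K23ac 63.9% and H3K4me3 44.5%, each above its median over the 500, whereas H2AK5ac covered 30.7%, below its median.

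**Figure D4:**
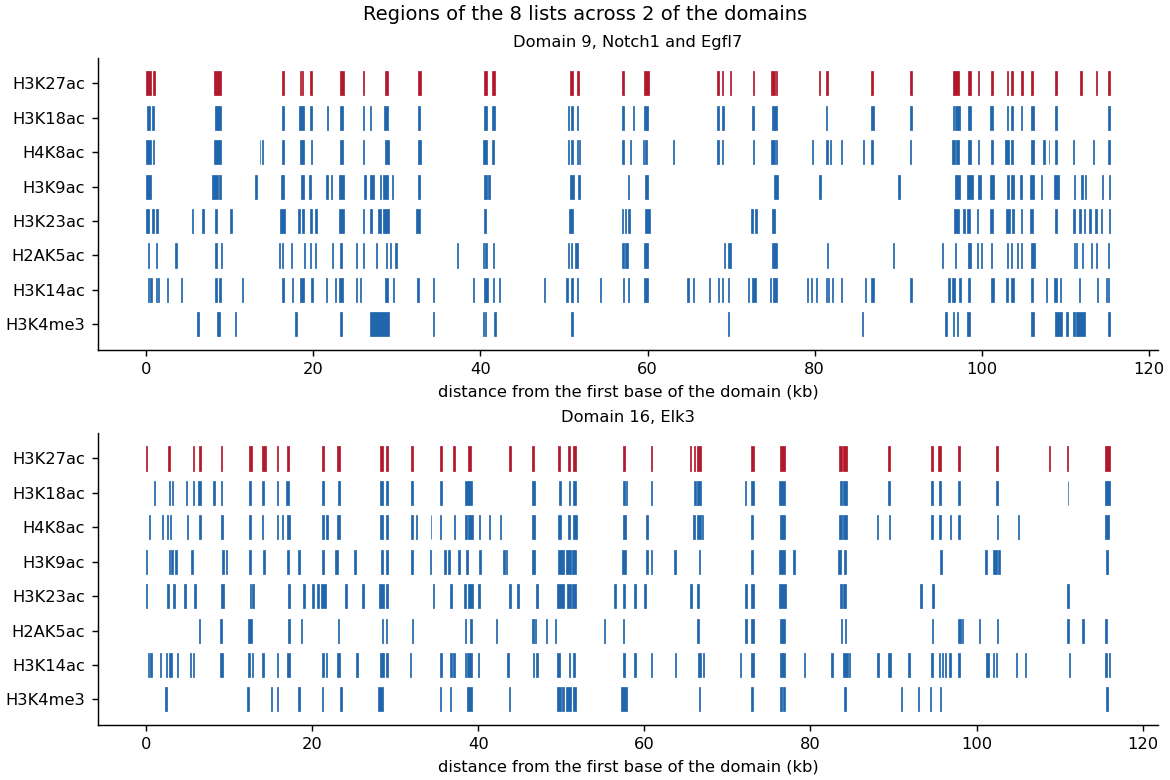
Regions of the 8 lists (bars, drawn to scale with a thin outline) across domain 9 at Notch1 and Egfl7 and domain 16 at Elk3, by distance (kb) from the first base of the domain. All regions in the spans are drawn, those near gene ends included, so more H3K27ac bars (red) appear than the 36 and 37 distal regions that define the domains; H3K4me3 regions covered 20.4% and 30.9% of the distal H3K27ac bases, H3K18ac regions 79.0% and 82.7%.

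The gene lists were read against all genes. A gene was counted where a domain overlapped it or, for a domain overlapping none, where it was nearest. This held for 553 of 21631 protein-coding genes (2.56%), and 483 (2.23%) were overlapped. Long genes were met more often: 0.764% of genes up to 20 kb and 9.05% of those over 150 kb. Each list is therefore given beside the share that all genes of the same 4 length classes show. The lists were drawn up by hand from known markers, with earlier results of these data known.

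Endothelial identity genes had the highest share, 10 of 34 (29.4%), against 3.26% at the same lengths. They were Egfl7, Elk3, Tjp1, Fli1, Ptprb, Ets1, S1pr1, Eng, Kdr and Ets2. The ETS-family factors in this group were Elk3 (9320 bp), Fli1 (6153 bp), Ets1 (5715 bp) and Ets2 (3492 bp; nearest gene, 69.7 kb away). The receptors were Ptprb (5794 bp), the phosphatase that restrains Tie2; S1pr1 (5255 bp; nearest gene, 12.1 kb away), the sphingosine-1-phosphate receptor; Eng (4163 bp), a TGF-beta co-receptor; and Kdr (4059 bp), the main VEGF receptor. Tjp1 (6828 bp) encodes ZO-1 of tight junctions. The other 24 had no domain, among them Cdh5, Pecam1 (65.0 kb from the nearest), Tek (196 kb) and Erg (204 kb), so these domains mark a minority of endothelial genes. Sox7 lay 2.53 kb from a domain that overlapped Pinx1.

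**Figure D5:**
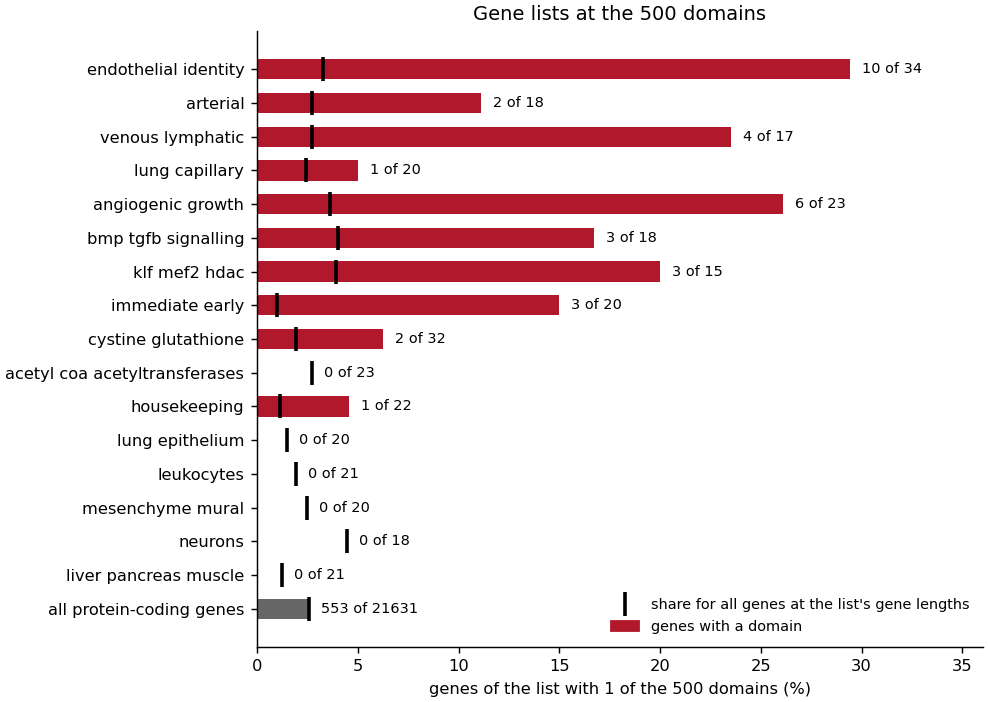
Share of each gene list (%) with 1 of the 500 domains (bars, numbers of genes beside them), and the share of all protein-coding genes at the list's gene lengths (black ticks). Endothelial identity reaches 29.4% with a tick at 3.26%; 6 lists are at 0.

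Other vascular lists followed. Angiogenic growth genes had 6 of 23 (26.1%, against 3.64% at the same lengths): Myc, Notch1, Pdgfb, Nrp2, Kdr and Pgf. Venous and lymphatic genes had 4 of 17 (23.5%, against 2.71%): Nrp2 (4742 bp), a receptor for VEGF-C; Prox1 (4326 bp), the factor of lymphatic fate; Lyve1 (3801 bp), a hyaluronan receptor; and Nr2f2 (3457 bp), the factor of venous fate. The list of KLF, MEF2 and HDAC genes had 3 of 15 (Hdac7, Mef2c and Klf6), against 3.93% at the same lengths, and BMP and TGF-beta signalling 3 of 18 (Smad7, Eng and Smad1), against 4.04%. Immediate early genes, which are short, had 3 of 20 (Dusp1, Jun and Fosb), or 15%, against 1.02%, so relative to its lengths this list stood farther above all genes than the endothelial one. Arterial genes had 2 of 18 (Notch1 and Unc5b; 11.1% against 2.71%) and lung capillary genes 1 of 20 (Ptprb; 5.00% against 2.45%). Since Notch1, Kdr, Nrp2, Eng and Ptprb stand in several lists, these counts overlap.

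The short lists of other cell types held no gene with a domain at the main settings. None of 20 lung epithelium, 21 leukocyte, 20 mesenchyme and mural, 18 neuron or 21 liver, pancreas and muscle genes had a domain, where the same gene lengths give 1.5%, 1.92%, 2.46%, 4.46% and 1.22%. At those shares fewer than 1 gene of each list would be met, so the zeros by themselves separate no list from all genes. Housekeeping genes had 1 of 22 (Ywhaz, nearest gene at 51.9 kb; 4.55% against 1.15%). Of the genes of acetyl-CoA supply and histone acetyltransferases none of 23 had a domain (2.72% at the same lengths), and of the cystine and glutathione genes 2 of 32 (6.25%, against 1.95%), Txn2, the mitochondrial thioredoxin (5297 bp), and Gpx4, the lipid peroxide reductase (4329 bp).

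The endothelial count stayed above the share of all genes with the other settings tried: 10 of 34 with a joining distance of 5 kb (all genes 2.03%), 16 with 25 kb (5.11%), 8 with overlapped genes only (2.23%) and 13 with regions near gene ends included (5.64%). With 250 domains it was 7 (1.34%) and with 1000 it was 17 (4.64%). With any gene within 50 kb it was 10 (5.11%). The order of the lists was not fixed. With regions near gene ends included, immediate early genes had 9 of 20, above the endothelial share of 38.2%, housekeeping genes 5 of 22 (22.7%) and lung epithelium genes 2 of 20. Within 50 kb, BMP and TGF-beta genes had 7 of 18 (38.9%), above the endothelial 29.4%. The venous and lymphatic count was 1 of 17 with 250 domains. The zeros of other cell types changed too. Within 50 kb, 1 leukocyte gene and 1 gene of liver, pancreas and muscle were met. With a joining distance of 25 kb, 1 mesenchyme and mural gene was met.

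Domains at vascular genes differed in which marks accompanied H3K27ac. At Nr2f2, H3K4me3 regions covered 80.0% of the H3K27ac bases, the highest of the 500, and H2AK5ac 11.2%. At Prox1, H3K4me3 covered 47.9% and H2AK5ac 7.28%, and at Smad1, a BMP effector, 46.7% and 4.25%, the lowest H2AK5ac value of the 500. Lyve1 showed the reverse, with 4.79% for H3K4me3 and 38.2% for H2AK5ac. At Kdr the values were 22.0% and 36.2%, at Eng 52.1% and 56.1%, and at Nrp2 51.1% and 50.7%. All are values of whole domains, which can reach beyond the named gene. The widest region of the Eng domain (641 bp) lay outside Eng and held a start of Fpgs. H3K4me3 and H2AK5ac thus varied separately among these domains, while H3K18ac stayed between 67.6% (Smad1) and 89.8% (Nrp2).

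H3K9ac and H3K23ac also ranged widely among the domains of genes on the lists. At Pdgfb, the ligand that recruits mural cells, H3K9ac covered 67.3% and H3K23ac 48.7% of the H3K27ac bases. At Gpx4 with Sbno2 the values were 63.7% and 73.0%, and at Pgf, a ligand of VEGF receptor 1, 64.4% and 64.3%. In the Eng domain, which also holds a start of Fpgs, they were 64.6% and 69.9%. At Ets2, by contrast, they were 6.64% and 23%, and at Lyve1 13.4% and 46.8%. Medians over the 500 were 37.1% and 43.5%, so Pdgfb, Gpx4, Pgf and Eng stood above both and Ets2 below both.

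Myc, the growth regulator, was the nearest gene of 3 domains in a row on 1 side of it. They lay 38.1, 102 and 205 kb from its end and covered 4091, 4585 and 4833 bp in 14, 16 and 22 regions. H3K4me3 coverage was 37.4%, 31.1% and 11.7%, and H3K14ac 84.5%, 64.4% and 50.3%, so both were lower in the domains farther from Myc. The farthest, domain 194, held 1291 IgG reads, and 3 domains are too few for a trend. The domain in the middle was shared with 6 other marks and the other two with 4 each.

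MicroRNAs (miRNAs) were met as well. Of 1005 hairpins in the RefSeq miRNA table, 34 (3.38%) lay in the spans of 26 domains, and 3 shared bases with an H3K27ac region. Both copies of a duplicated miRNA cluster were among them: Mir23b, Mir27b and Mir24-1 in domain 106 (Aopep and Fancc), and Mir23a, Mir27a and Mir24-2 in domain 163 (Nanos3, Zswim4 and 4930432K21Rik), beside Mir181d. Domain 5, with no protein-coding gene, held Mir29a and Mir29b-1 together with the lncRNA 2210408F21Rik. Domain 159 (Vmp1 and Tubd1) held Mir21a, and domain 348 (Pde2a) Mir139. Mature sequences of RefSeq, 5′ to 3′, are shown for these well-known miRNAs, with bases 2 to 8, the seed, in capitals; the pairs in the first 2 lines and in the next 2 lines share a seed, and miR-24-3p is the same from both of its copies.

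miR-27a-3p (domain 163): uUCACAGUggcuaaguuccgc
miR-27b-3p (domain 106): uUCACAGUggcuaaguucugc
miR-29a-3p (domain 5): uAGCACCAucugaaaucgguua
miR-29b-3p (domain 5): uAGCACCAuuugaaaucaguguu
miR-24-3p (domains 106 and 163): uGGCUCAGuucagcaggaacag
miR-21a-5p (domain 159): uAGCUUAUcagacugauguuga
miR-139-5p (domain 348): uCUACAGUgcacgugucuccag

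Domains 106 and 163 were rich in several marks. In domain 163, H3K18ac covered 92.6% of the H3K27ac bases, H3K9ac 79.3%, H3K23ac 70.3% and H3K4me3 53.8%, and in domain 106, 76.6%, 60.9%, 57.6% and 49.2%. Their hairpins lay 0.431 to 0.728 kb (domain 163) and 2.19 to 2.91 kb (domain 106) from the nearest H3K27ac region of the domain, with Mir181d at 1.77 kb. In domain 5, Mir29a and Mir29b-1 were 0.318 and 0.681 kb from such a region. Mir126a, the endothelial miRNA inside Egfl7, lay 1092 bp beyond the end of domain 9.

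Reads could be placed for a part of the domains only, and that part was not spread evenly over the chromosomes. Region numbers were shared by several lists in the count table, so that a count often sums unrelated places. Identifiers with 1 region, all from the H3K14ac list, are free of this and reached 359 of the 500 domains, with 7906 regions and 932 kb of bases in no other region. There, H3K27ac had 21.5 CPM per kb, with an exact Poisson 95% interval of 21.3 to 21.7. H3K18ac had 16.2, H3K14ac 15, H4K8ac 13.2, H3K9ac 4.13, H3K4me3 3.81, H2AK5ac 2.19 and H3K23ac 1.92. These places exclude every base shared with another list, so they are the parts of the spans where only the H3K14ac list has a region. In CPM per kb H3K27ac was nevertheless above H3K14ac there, although it had fewer reads, 50697 against 140743. IgG stood at 22.7 in the same places, so these values do not rank the marks by abundance. A place without a region of a mark can still hold its reads.

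In these parts the marks were denser than in like places elsewhere, which were distal regions of the H3K14ac list not matched for nearness to H3K27ac. The domains were chosen by their H3K27ac regions, so the higher H3K27ac density is not an independent result. The ratio to like places outside the domains was 24.1 for H3K9ac, 15.8 for H3K23ac, 14.2 for H4K8ac, 9.85 for H2AK5ac, 8.57 for H3K18ac, 6.57 for H3K4me3 and 4.15 for H3K27ac. Against the spans of ranks 501 to 1000 the ratios were 1.91, 1.64, 1.55, 1.76, 1.32, 1.19 and 1.25 in the same order. Among these 7 marks H3K9ac had the largest ratio in both comparisons. Its reads lay in few regions: 377 of 7906 in the domains, 120 of 4504 at ranks 501 to 1000 and 1311 of 333563 outside. H2AK5ac reads lay in 349 and H3K23ac reads in 605 of the 7906, so the ratios of these marks do not describe most places. H3K14ac is not ranked with the 7 marks, because every place compared was chosen as a region of its own list. The H3K14ac values were 15 and 13 CPM per kb inside and outside the domains. Libraries held 1477463 (H3K4me3) to 10044130 (H3K14ac) reads for the marks and 365999 for IgG, and intervals cover counting error only.

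IgG was uneven. It had 22.7 CPM per kb in the same places, 4.60 times its density outside the domains and 2.44 times that at ranks 501 to 1000, but its 7755 reads lay in 15 of the 7906 regions and in 14 domains, whereas H3K27ac reads lay in 6342 regions. The domains with the most IgG reads were domain 12 at Magi1 (4846), domain 194 beside Myc (1291) and domain 199 at Cald1 (1230). Without the 14 domains, H3K27ac had 21.2 CPM per kb, H3K9ac 4.35 and H3K14ac 14.9, and the share of H3K27ac regions with H3K9ac was 41%. For the 141 domains without such regions no IgG value was obtained.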

How the data were processed

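What the authors deposited is a single table of counts covering 9 libraries, made with featureCounts 2.0.6 per the file header, with mates counted separately and without strand. The submitters' processing notes name STAR, MACS2, mm10 and GRCm38.p6; settings of the aligner and peak caller were not given in the sources used here. The table lists 1309635 regions under 578465 identifiers, because 8 lists numbered from 1 were joined under shared names. The lists were separated by genome order and minimum width, and named by their densest library. On smaller simulated lists (45568 regions), placed uniformly and independently with widths drawn from the separated lists, 99.9% of regions returned to their own list. The real lists often lie at the same places, so this share does not measure the accuracy of the separation here. Depth ran from 365999 counts (IgG) to 10044130 (H3K14ac). Reads were used only for the 398202 identifiers with 1 region, as CPM with exact Poisson intervals. These identifiers come from the later part of the H3K14ac list, which runs in genome order, so the chromosomes are not evenly represented. Counts that sum several regions (180263 identifiers) were left out.

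Genes, starts and miRNAs came from RefSeq tables of GRCm38.p6; coordinates are 1-based. Domains, overlaps, shares and intervals were computed in Python 3.11.15 with numpy 2.4.6, pandas 2.3.3 and scipy 1.17.1, and drawn with matplotlib 3.10.9. With 1 library per mark no test was made. The members and gene lists were chosen with earlier results of these data known. Named, apart from a few results not reported here, are the 20 largest domains, the 5 on each side of the threshold, up to 4 genes per list by covered bases, the 3 highest and lowest of the 100 largest domains for H3K4me3, H3K9ac and H2AK5ac, and the 3 with the most IgG reads; other domains named were chosen after their values were seen. Alternatives changed the joining distance, gene-end exclusion, width, ranking, list separation, overlap, number of domains, gene assignment and span.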

Additional observations from a re-analysis of the deposited data

How the results depend on the processing

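The joining distance decided membership most: with 5 kb, 88 of the 500 domains kept at least 50% of their covered bases, and in the 6 other settings 353 to 500 did. Joined at 5 kb, the new top 500 had H3K18ac at 89.0% of regions, H4K8ac 88.0%, H3K9ac 57.3%, H3K23ac 63.0%, H2AK5ac 59.0%, H3K14ac 76.5% and H3K4me3 44.2%. At 25 kb the shares were, in that order, 77.5, 74.5, 32.4, 37.3, 41.7, 66.8 and 26.0%. Counting only overlaps of at least 50% of the region gave 77.0, 72.2, 32.3, 38.1, 31.4, 57.7 and 22.2%, and leaving out other lists' regions of minimum width gave 75.9, 71.4, 25.2, 29.4, 27.3, 53.2 and 20.3%. With 250 domains, H4K8ac moved to 81.7%, H3K9ac 43.2%, H3K23ac 48.9% and H2AK5ac 49.9%. With 1000 domains, H3K18ac moved to 81.1%, H4K8ac 78.9%, H3K9ac 37.9%, H3K23ac 43.6%, H2AK5ac 46.3% and H3K4me3 30.2%. Leaving out regions near any RefSeq start gave H3K9ac 39.3%, H3K23ac 45.6%, H2AK5ac 47.6% and H3K4me3 29.5%. In all 9 alternatives each of the 7 shares was higher in the domains than in other distal regions. Genes with a domain numbered 1105 within 50 kb, 1221 with no exclusion, 290 and 1003 with 250 and 1000 domains, and 1106 at 25 kb. Domains with all 8 lists were 100% of 250 and 96.4% of 1000. With spans widened by 12.5 kb, densities in CPM per kb were 20 for H3K27ac, 14.4 for H3K18ac, 11.7 for H4K8ac, 3.59 for H3K9ac, 1.80 for H3K23ac, 1.91 for H2AK5ac, 14.8 for H3K14ac and 18.2 for IgG. Without the 14 domains with IgG reads, H3K27ac was 21.2, H3K9ac 4.35, H3K14ac 14.9 and H3K4me3 3.92. No paired analysis was possible because each mark has 1 library. The causes of these shifts were not tested. Neither biological nor technical variation can be read from 1 library per mark, and region lists from libraries of unequal depth differ in length.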
